A study of Mus musculus with 24 samples.

Results

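The comparison set 3T9 cells that carry MycER HEA against 3T9 cells that carry the empty vector (EV), both after 8 h in OHT. It rests on 6 of the 24 libraries of the series, 3 of MycER HEA and 3 of EV, and on 12268 of 21671 genes, those that reached 1 RPKM in 3 or more of the 24 libraries. 3T9 is an immortalised mouse fibroblast line. In MycER, Myc, a transcription factor, is fused to the oestrogen receptor's hormone-binding part, and OHT (4-hydroxytamoxifen) releases such a fusion from its inactive state. HEA is a mutant Myc form whose altered residues lie in the stretch that contacts the bases of the DNA motif, and the exact residues are not given in the labels. The MycER HEA cells were infected with the HEA construct, the EV cells with the vector alone, and both were given OHT, so the drug itself is shared. MycER WT, which carries the unmutated Myc, and MycER HEA and EV after 4 h served to place the 8 h values. The libraries of MycER RA, another form in the series, entered the gene filter and the fit. The fusion is made from an introduced vector beside the cells' own Myc, and libraries without OHT were not used here. The title of the series asks what sequence-specific binding to DNA, and binding of any sequence, each contribute to gene regulation by Myc.

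Myc binds DNA as a dimer with Max, through a basic region that touches the DNA backbone and reads the E-box, CACGTG. In fibroblasts it is best known for raising genes of ribosome production, nucleotide synthesis and cell cycle entry, and for lowering genes of growth arrest such as Cdkn1a. Max also pairs with the Mxd proteins, Mnt and Mga, which act mainly as repressors at the same motif.

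The libraries held 9.82 to 12.8 M reads, from whole reads recovered out of the deposited RPKM (reads per kilobase of gene, scaled to library depth). The 3 HEA and 3 EV libraries at 8 h lay between 10.1 and 12.5 M. Pairs of HEA libraries differed by a median of 0.09 to 0.14 and pairs of EV libraries by 0.06 to 0.11 on the log2 scale over the tested genes, against 0.26 to 0.35 between a HEA and an EV library. HEA library 1 stood further from the other two HEA libraries (0.13 and 0.14) than these did from each other (0.09). Whether the numbered libraries of a group derive from separate cultures is not stated in the labels, and the p-values therefore reflect only the variation among these libraries, possibly technical. Esr1, the gene of the oestrogen receptor, checked the labels of MycER against EV: it read 11, 10.4 and 9.26 RPKM in HEA cells, against 0.291, 0.177 and 0.099 RPKM in EV cells. Esr1 cannot tell the MycER forms apart. Its level in HEA cells was close to that in WT cells (10.2 ± 0.88 and 11.2 ± 2.3 RPKM, mean ± SD, n = 3 each; log2 difference -0.11 ± 0.14 SE, limma adjusted p = 0.531), with no significant difference between them. Myc itself read 46.8, 55.7 and 45.9 RPKM in HEA cells, against 57.9, 56.5 and 60.2 RPKM in EV cells. Those groups did not overlap, but the difference did not pass the test (log2 -0.24 ± 0.17, limma adjusted p = 0.253), and it passed when only the HEA and EV libraries entered the fit (0.0266).

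Gene expression differed widely between HEA and EV cells. At an adjusted p under 0.05 in limma, 5853 of 12268 genes passed, which is 47.7% of those tested: 2474 were higher in HEA cells (20.2%) and 3379 lower (27.5%). Most of the changes were small, with a median size of 0.53 on the log2 scale among the genes that passed. Changes of at least 2-fold were more often rises, with 466 genes higher (3.8%) and 330 lower (2.69%), and at least 4-fold changes comprised 53 rises and 7 falls. The genes that rose at least 2-fold had a median of 2.33 RPKM in EV cells, and 135 of the 466 averaged under 1 RPKM there. The genes that fell at least 2-fold had a median of 10.6 RPKM in EV cells, and 46 of the 330 averaged under 1 RPKM in HEA cells. The median over all tested genes was 17 RPKM in EV cells. The filter admits genes low in EV cells if other libraries reach 1 RPKM, and a 2-fold fall cannot start near 0. The filter and the added 0.5 therefore partly set this contrast of EV levels. Rises made up 42.3% of the genes that passed, and 53.6% when each library was centred on its own median, so the balance of small rises and falls rests on the scaling. Fold changes are on the scale of log2(RPKM + 0.5), which understates the change of genes with low RPKM. RPKM gives a share of a library rather than an amount per cell, and in bulk RNA a change in RNA per cell cannot be told apart from a change in how many cells carry the transcript.

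**Figure D1:**
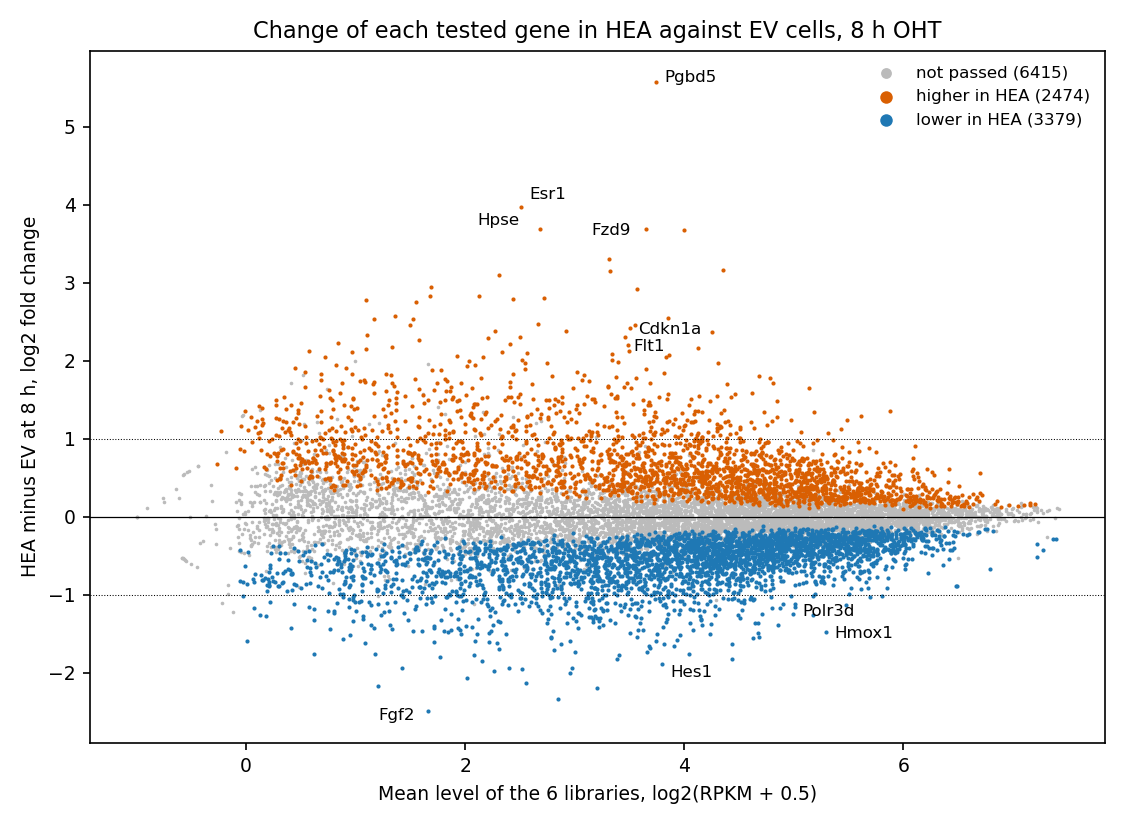
Each point is 1 of the 12268 tested genes, with its mean level over the 3 HEA and 3 EV libraries at 8 h on the horizontal axis and the log2 fold change of HEA over EV on the vertical axis. Orange and blue mark the 2474 higher and 3379 lower genes at an adjusted p under 0.05, dotted lines mark 2-fold changes, and the largest rises, led by Pgbd5, exceed the largest falls in size.

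The rise of Pgbd5, a domesticated transposase gene of the piggyBac family, was the largest of all. It read 26, 27.4 and 23.7 RPKM in HEA cells, against 0.0623, 0.0568 and 0.0318 RPKM in EV cells, which is 2270 reads over the 3 HEA libraries and 5 reads over the 3 EV libraries. The ratio of reads, scaled to library depth, was 508 (95% exact interval 217 to 1570, counting error only), and the log2 change was 5.57 ± 0.14 (limma adjusted p = 1.66e-16). Hpse, which encodes the heparan sulfate-cleaving enzyme heparanase, read 10.2, 12 and 12 RPKM in HEA cells, against 0.455, 0.369 and 0.438 RPKM in EV cells (log2 3.69 ± 0.18, adjusted p = 7.51e-12). HEA and EV libraries did not overlap for 64.2% of all tested genes.

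Leaving out predicted loci, the next rises were Fzd9, Engase, Sfrp2, Frat1 and Chst15. Fzd9, a Frizzled receptor for Wnt ligands, read 23.8, 23.4 and 21.3 RPKM in HEA cells, against 1.17, 1.41 and 1.36 RPKM in EV cells (log2 3.69 ± 0.18). Sfrp2, a secreted Frizzled-related protein, rose by 3.10 ± 0.27, and Frat1, which binds the kinase GSK3, by 2.95 ± 0.2. Engase, an enzyme that cleaves N-glycans from proteins in the cytosol, read 16.4, 17.8 and 18.5 RPKM in HEA cells, against 1.66, 0.967 and 1.4 RPKM in EV cells (log2 3.31 ± 0.15). Chst15, a sulfotransferase of chondroitin sulfate, averaged 20.5 ± 2 RPKM in HEA cells and 2.26 ± 0.091 RPKM in EV cells (log2 2.92 ± 0.13). The largest rises and falls named here were chosen among genes whose HEA and EV libraries do not overlap, so the lack of overlap in them is no result.

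The other genes among the 15 largest rises were Peli3 (log2 2.83), a Pellino ubiquitin ligase, Epb4.1l4b (2.80), a band 4.1 family gene, and Trim7 (2.79), a tripartite motif ubiquitin ligase. Grb14 (2.77), an adaptor that restrains the insulin receptor, Inhbb (2.57), a subunit of activin and inhibin, Gls2 (2.55), a glutaminase, and Pm20d2 (2.54) completed them together with Esr1 (3.97). Esr1 rose about as much in WT cells (4.08) and RA cells (4.09) against EV. The fusion carries part of the oestrogen receptor, and reads of the construct and of the cells' own Esr1 were not told apart. Grb14 was carried by 422 reads in HEA cells and 6 in EV cells. Gls2 started from a higher level, with 22.5, 25.4 and 24.5 RPKM in HEA cells, against 4.08, 3.18 and 3.88 RPKM in EV cells.

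The largest falls were smaller in size and included growth factor and transcription factor genes. Fgf2, which encodes basic fibroblast growth factor, read 0.223, 0.618 and 0.548 RPKM in HEA cells, against 4.35, 4.78 and 5.44 RPKM in EV cells (log2 -2.50 ± 0.24, limma adjusted p = 5.89e-08). Hes1, a repressor that is a direct target of Notch signalling, read 6.35, 4.68 and 5.25 RPKM in HEA cells, against 20.4, 20.3 and 23.4 RPKM in EV cells (log2 -1.89 ± 0.15). Egr2, a zinc finger factor induced by growth factors, read 0.836, 2.78 and 2.34 RPKM in HEA cells, against 7.39, 9.52 and 8.54 RPKM in EV cells (log2 -1.95 ± 0.24). HEA library 1 gave the lowest Fgf2 and Egr2 values.

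Among the remaining 12 were secreted and surface proteins: Ccbe1 (log2 -2.34), a factor of lymphatic vessel growth, Chil1 (-2.17), a chitinase-like glycoprotein, and Tnfrsf21 (-1.98), the death receptor DR6. Lrrc8e (-2.01) is a subunit of the volume-regulated anion channel and read 2.4, 2.46 and 2.95 RPKM in HEA cells, against 12.3, 12 and 11.5 RPKM in EV cells. Agtrap (-2.07) encodes a protein that binds the angiotensin receptor, Gsta4 (-1.94) a glutathione transferase that acts on lipid peroxidation products, and Tuba4a (-1.82) an alpha tubulin. Eva1a (-2.13), Ccbl2 (-1.94), Fam110c (-1.93), Klf8 (-1.86), a zinc finger factor, and Fam195a (-1.82) were the others. Tuba4a was the most abundant of the 15, with 9.07 ± 1.6 RPKM in HEA cells and 33.1 ± 2.1 RPKM in EV cells.

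**Figure D2:**
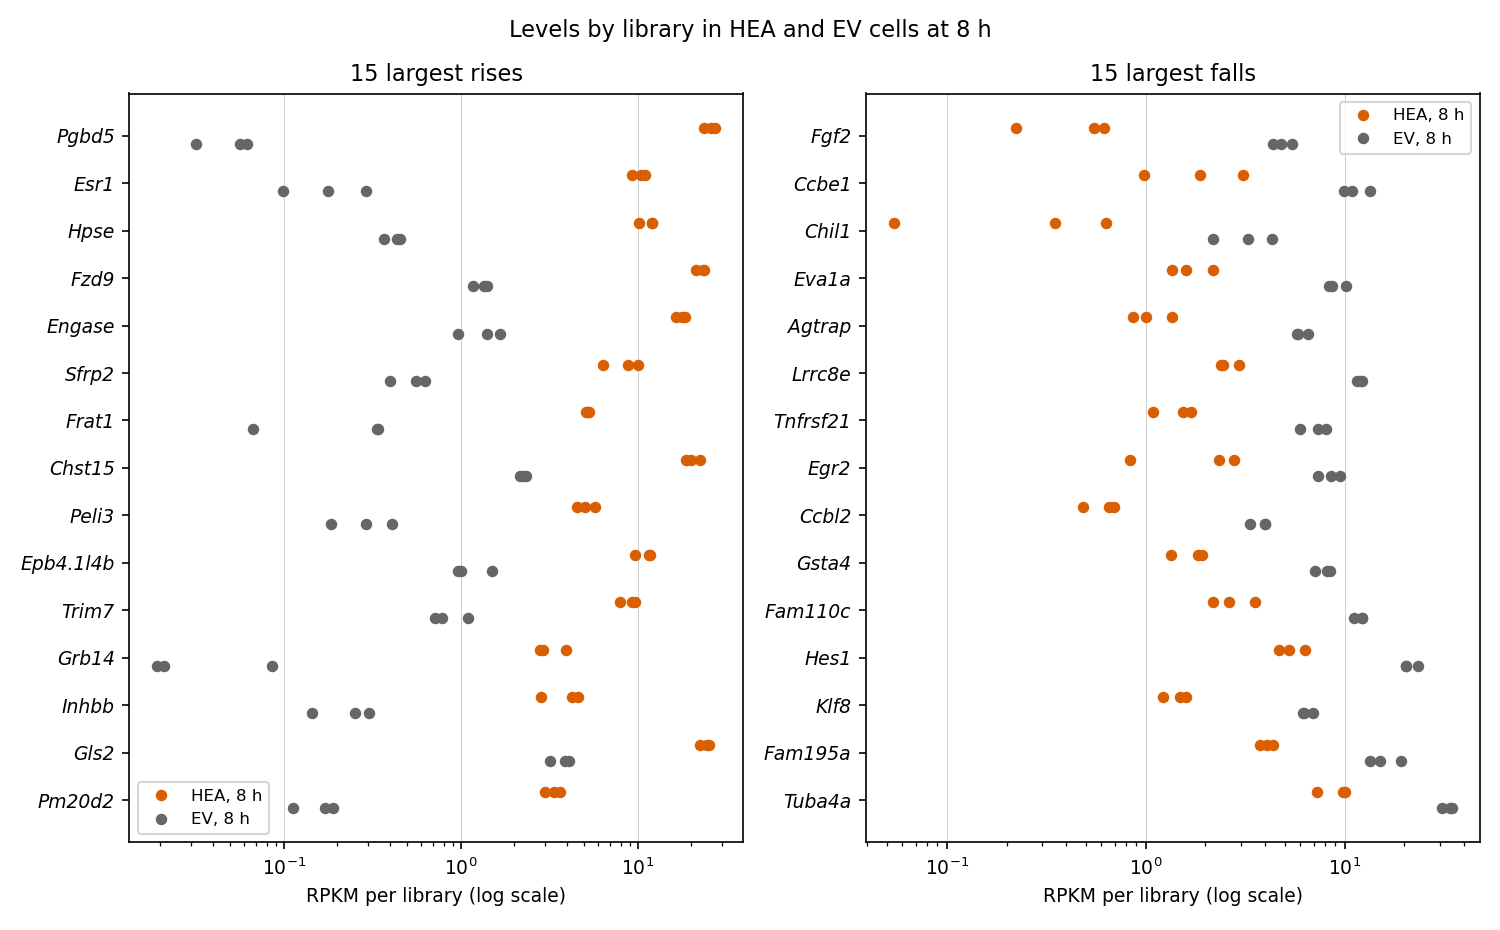
RPKM on a log axis for the 15 largest rises (left) and 15 largest falls (right) at 8 h, chosen as those whose groups do not overlap, with each of the 3 HEA libraries as an orange point above each of the 3 EV libraries as a grey point. Pgbd5 lies between 23.7 and 27.4 RPKM in HEA cells and under 0.1 RPKM in EV cells, and Fgf2 lies under 1 RPKM in HEA cells and above 4 RPKM in EV cells.

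The windows around the annotated starts of these genes were read from RefSeq (GRCm38.p6), from 250 bases before to 50 bases after the start. Hpse (chr5:100719667-100719966, minus strand) and Engase (chr11:118476582-118476881, plus strand), from the rises, are set beside Agtrap (chr4:148088015-148088314, minus strand) and Tnfrsf21 (chr17:43016305-43016604, plus strand), from the falls. They are shown because the canonical E-box was present in the windows of these falls and not in those of these rises; capitals mark CACGTG, a palindrome that reads the same on both strands.
Hpse: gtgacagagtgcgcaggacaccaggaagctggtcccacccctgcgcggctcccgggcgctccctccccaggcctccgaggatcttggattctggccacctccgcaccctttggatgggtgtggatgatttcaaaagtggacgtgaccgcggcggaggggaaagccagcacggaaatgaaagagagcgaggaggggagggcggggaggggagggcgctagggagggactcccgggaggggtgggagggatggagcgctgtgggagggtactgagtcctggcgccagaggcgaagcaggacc
Engase: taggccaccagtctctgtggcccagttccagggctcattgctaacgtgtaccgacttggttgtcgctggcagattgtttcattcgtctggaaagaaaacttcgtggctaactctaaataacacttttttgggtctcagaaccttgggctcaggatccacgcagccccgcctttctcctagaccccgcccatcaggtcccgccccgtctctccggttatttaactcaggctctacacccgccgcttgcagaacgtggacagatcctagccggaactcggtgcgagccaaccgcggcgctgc
Agtrap: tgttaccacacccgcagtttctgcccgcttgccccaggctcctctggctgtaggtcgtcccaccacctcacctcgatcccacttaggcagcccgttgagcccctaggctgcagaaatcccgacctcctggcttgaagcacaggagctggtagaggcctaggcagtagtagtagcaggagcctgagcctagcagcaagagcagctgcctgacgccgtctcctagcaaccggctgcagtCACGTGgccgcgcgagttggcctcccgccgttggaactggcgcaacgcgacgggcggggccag
Tnfrsf21: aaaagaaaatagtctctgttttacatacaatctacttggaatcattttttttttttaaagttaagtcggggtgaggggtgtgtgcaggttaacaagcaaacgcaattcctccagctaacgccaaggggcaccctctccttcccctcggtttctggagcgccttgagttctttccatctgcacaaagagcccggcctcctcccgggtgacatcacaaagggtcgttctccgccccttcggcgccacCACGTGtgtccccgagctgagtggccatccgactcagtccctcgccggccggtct

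These 4 windows were picked after their sequences were seen, and Fzd9, a strong rise, holds CACGTG as well. Among the other large falls, Eva1a and a window of Egr2 hold it. The windows of Fgf2, Chil1, Lrrc8e, Ccbl2, Fam110c, Klf8, Fam195a and Tuba4a do not. Counted over all genes, a CACGTG in at least 1 window was found for 23 of 348 genes that rose at least 2-fold (6.61%) and for 41 of 259 that fell at least 2-fold (15.8%), beside 1122 of 9515 tested genes (11.8%). Among genes with a single window, so that the number of windows could not differ, the shares were 3.91% of the 2-fold rises, 15.5% of the 2-fold falls and 10.4% of all tested genes. The motif stood in 7.15% of all windows in the table. Of the 16 palindromes NNCGNN that were counted, 6 including CACGTG were more frequent among the 2-fold falls and 10 among the 2-fold rises. More frequent among the rises were CGCGCG, at 27.9% of the rises and 17.4% of the falls, GGCGCC, at 26.7% of the rises and 18.1% of the falls, and AGCGCT, at 15.5% of the rises and 7.72% of the falls, beside 25.8%, 25% and 11.2% of all tested genes. A window was found for 77.6% of the tested genes, and these shares are descriptions without a test of what binds there.

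Most of the listed genes of ribosome production were lower in HEA cells. Of 44 ribosome biogenesis genes, 31 were lower, 3 higher and 10 did not pass, with a median log2 change of -0.32, beside -0.05 over all tested genes. Of all tested genes, 27.5% were lower and 20.2% higher. Centring each library on its median left 23 of the 44 lower. Dkc1, the pseudouridine synthase of box H/ACA particles, averaged 31.3 ± 1.7 RPKM in HEA cells and 59.6 ± 1.3 RPKM in EV cells (log2 -0.92 ± 0.1). Rrp9, a protein of the U3 particle, read 34.8, 39.8 and 36.3 RPKM in HEA cells, against 63.7, 57.1 and 60.8 RPKM in EV cells (log2 -0.70 ± 0.073, limma adjusted p = 1.6e-07). Tsr1, which matures the small subunit, read 20.3, 22.2 and 20.8 RPKM in HEA cells, against 33.6, 34.4 and 33.7 RPKM in EV cells (log2 -0.67 ± 0.07). In both of these genes all HEA libraries lay below all EV libraries, where 64.2% of all tested genes had no overlap in either direction. Heatr1, needed for transcription of ribosomal DNA, fell by 0.49 on the log2 scale. The 3 that rose included Ddx10 (log2 0.51) and Noc4l (0.37), an RNA helicase and a small subunit factor, with 39.8 ± 0.62 and 54.9 ± 3.2 RPKM in HEA cells, against 27.8 ± 0.53 and 42.4 ± 0.96 RPKM in EV cells. The abundant nucleolar proteins Npm1 (0.04), Ncl (-0.17) and Fbl (-0.17) did not pass.

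The window of Tsr1 (RefSeq GRCm38.p6, chr11:74897830-74898129, plus strand) is shown as an example of a ribosome biogenesis gene with the E-box. Capitals again mark CACGTG, which here begins 24 bases after the annotated start.
Tsr1: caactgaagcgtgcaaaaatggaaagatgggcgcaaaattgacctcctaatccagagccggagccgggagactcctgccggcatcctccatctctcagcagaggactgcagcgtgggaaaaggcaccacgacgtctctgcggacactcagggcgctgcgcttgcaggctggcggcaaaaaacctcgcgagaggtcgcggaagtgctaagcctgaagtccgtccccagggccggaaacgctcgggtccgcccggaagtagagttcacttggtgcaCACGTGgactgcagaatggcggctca
A window with CACGTG was found for 11 of 39 ribosome biogenesis genes (28.2%), beside 11.8% of all tested genes. The 39 genes were counted whatever their change in HEA cells. The palindrome GACGTC stood in 17.9% of them, beside 8.92% of all tested genes, and CGCGCG in 10.3%, beside 25.8%. The window of Heatr1 holds no CACGTG.

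Subunits and cofactors of RNA polymerase I and III, which transcribe ribosomal RNA and transfer RNA, were also lower in the majority. Of 27 tested, 16 were lower, 3 higher and 8 did not pass, with a median log2 change of -0.37. Over all tested genes, 27.5% were lower and 20.2% higher. Polr3d, a polymerase III subunit, read 17.7, 20.5 and 19.9 RPKM in HEA cells, against 42.8, 43.3 and 45.6 RPKM in EV cells (log2 -1.16 ± 0.07, limma adjusted p = 1.32e-10). Polr3g, another polymerase III subunit, had the largest fall of the list (-1.19 ± 0.16), and the 2 largest subunits Polr3a (-0.67) and Polr3b (-0.74) fell too. Polymerase I was represented by Polr1b (-0.60), Polr1a (-0.37) and the factor Ubtf (-0.35). Brf1, an initiation factor of polymerase III, rose by 0.61 ± 0.13, with 22.6 ± 1.1 RPKM in HEA cells and 14.6 ± 0.66 RPKM in EV cells.

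The same genes were set against cells with the unmutated MycER at 8 h, since a call in 1 comparison and not in another shows no difference by itself. HEA was tested against WT directly, and WT against EV is given beside it with the reminder that it shares the EV libraries with HEA against EV. In HEA against WT, 5887 genes passed (48.0%), 2866 higher in HEA cells (23.4%) and 3021 lower (24.6%). Of the 44 ribosome biogenesis genes, 39 were lower in HEA than in WT cells and 0 higher (median log2 difference -0.62), while 5 did not pass. Against EV, HEA cells had 3 of them higher and 31 lower, and WT cells 32 higher and 0 lower, where 35.2% of all genes passed for WT, 15.2% higher and 20.1% lower. Of the 27 polymerase genes, 20 were lower and 1 higher in HEA than in WT cells, and against EV 15 were higher and 1 lower in WT cells. Rrp9 averaged 37 ± 2.6 RPKM in HEA cells and 104 ± 6.2 RPKM in WT cells, with EV cells between them at 60.5 ± 3.3 RPKM. Dkc1 and Polr3d differed from this pattern in that WT against EV did not pass (log2 0.10 and 0.12), while HEA against EV did (log2 -0.92 and -1.16).

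**Figure D3:**
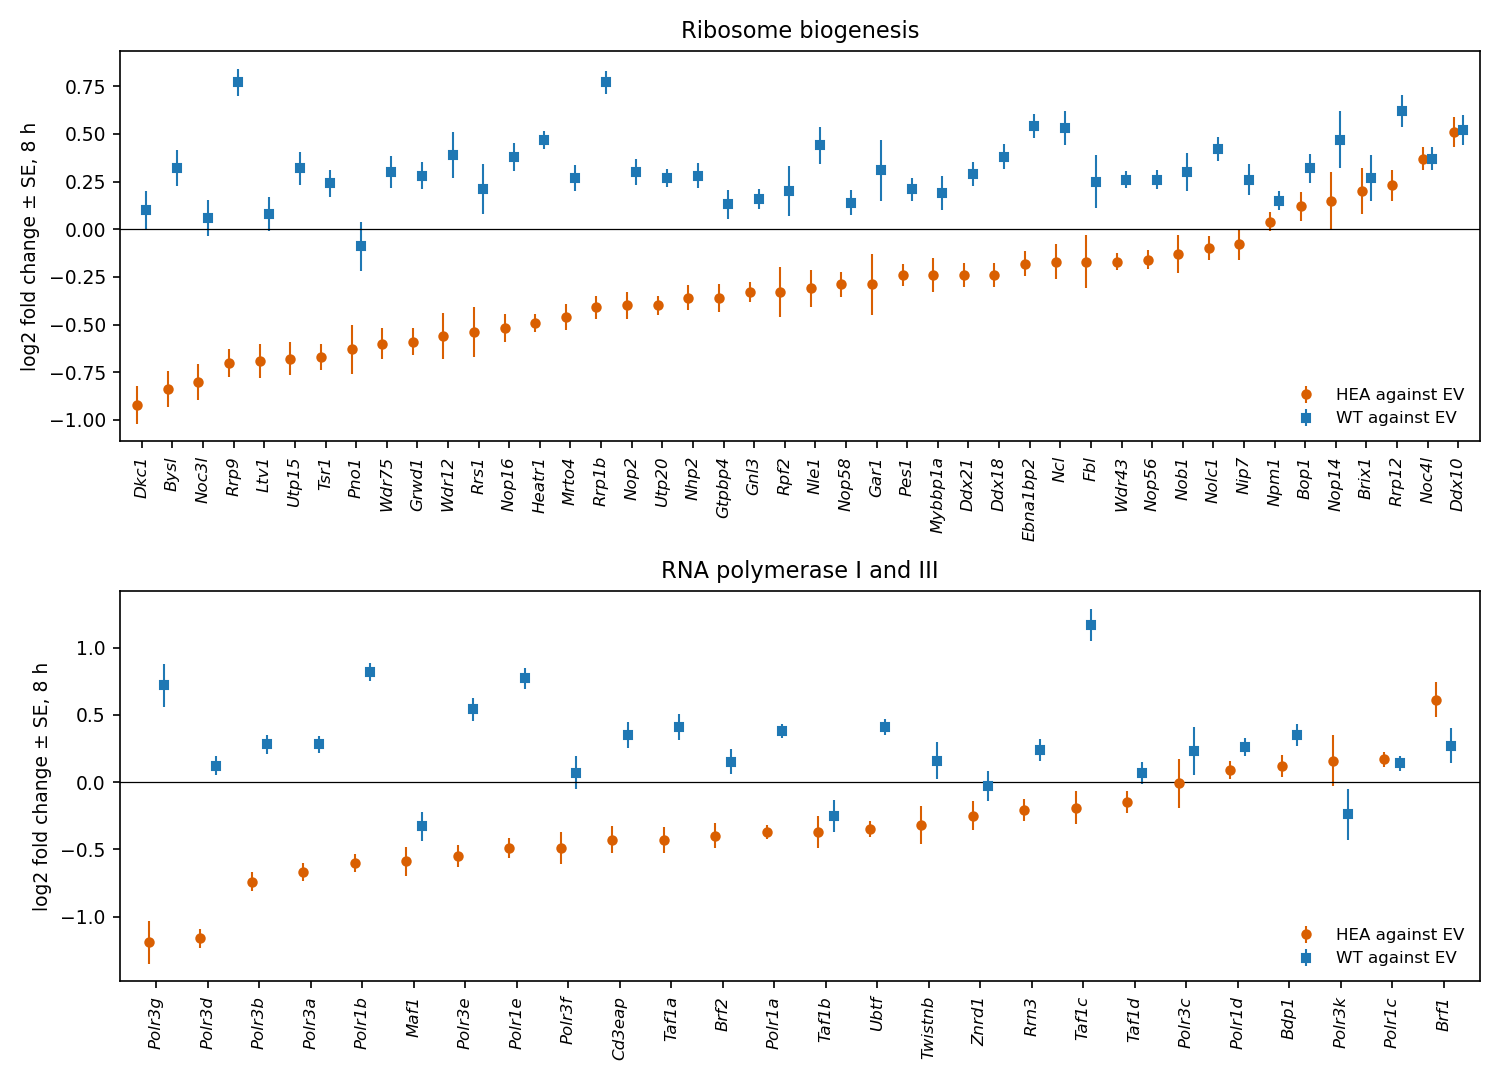
Log2 fold changes ± SE at 8 h for the 44 ribosome biogenesis genes (top) and the genes of RNA polymerase I and III (bottom, 1 of the 27 not shown), ordered by the HEA value, with HEA against EV in orange and WT against EV in blue. Both use the same 3 EV libraries. Most orange points lie below 0 and most blue points above it, Polr3g and Polr3d are lowest in HEA cells, and Ddx10 and Noc4l are at about the same height for both forms.

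Other growth-related lists moved less evenly. Of 30 nucleotide and one-carbon metabolism genes, 17 were lower and 5 higher in HEA cells (median log2 -0.30). Over all tested genes, 27.5% were lower and 20.2% higher. Shmt1, which makes one-carbon units from serine, averaged 19 ± 2.1 RPKM in HEA cells and 36.2 ± 1.3 RPKM in EV cells (log2 -0.92 ± 0.087), and Mthfd1 (-0.77), the next enzyme of the folate route, and Pfas (-0.51), of purine synthesis, fell with it. Impdh1, of guanine nucleotide synthesis, rose by 0.94 ± 0.13, and the mitochondrial folate enzyme Aldh1l2 by 0.62 ± 0.07. Cytosolic ribosomal protein genes, in contrast to the assembly factors, hardly moved: 2 of 42 were lower and 0 higher (median 0.02), although 4 to 9 came out higher under median centring, quantile normalisation or cyclic loess. Of 32 transfer RNA synthetases and translation factors, 6 were lower and 3 higher (median 0.00), with 2 lower and 6 higher after median centring, 3 lower without HEA library 1, and 0 higher without HEA library 2, HEA library 3 or EV library 2.

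Mitochondrial ribosome and import genes numbered 5 lower and 2 higher of 30. Timm10, a chaperone of the intermembrane space, read 18.2, 23.1 and 20.8 RPKM in HEA cells, against 53.2, 45.4 and 52.4 RPKM in EV cells (log2 -1.27 ± 0.1, limma adjusted p = 6.29e-09), while the ribosomal protein gene Mrpl4 rose by 0.52. Of 11 polyamine genes 5 fell and 2 rose. Spermidine synthase Srm (-0.43), Amd1 (-0.40) and the catabolic enzyme Sat1 (-0.84) fell, the antizyme inhibitor Azin1 (0.38) and the oxidase Smox (0.68) rose, and Odc1, the entry enzyme, did not pass (0.06). Glycolysis showed 4 rises and 6 falls among 25, with Pfkm (0.86) and Gpi1 (0.48) higher and Pfkfb4 (-1.13) lower in HEA cells. The shares over all tested genes were 20.2% higher and 27.5% lower.

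**Figure D4:**
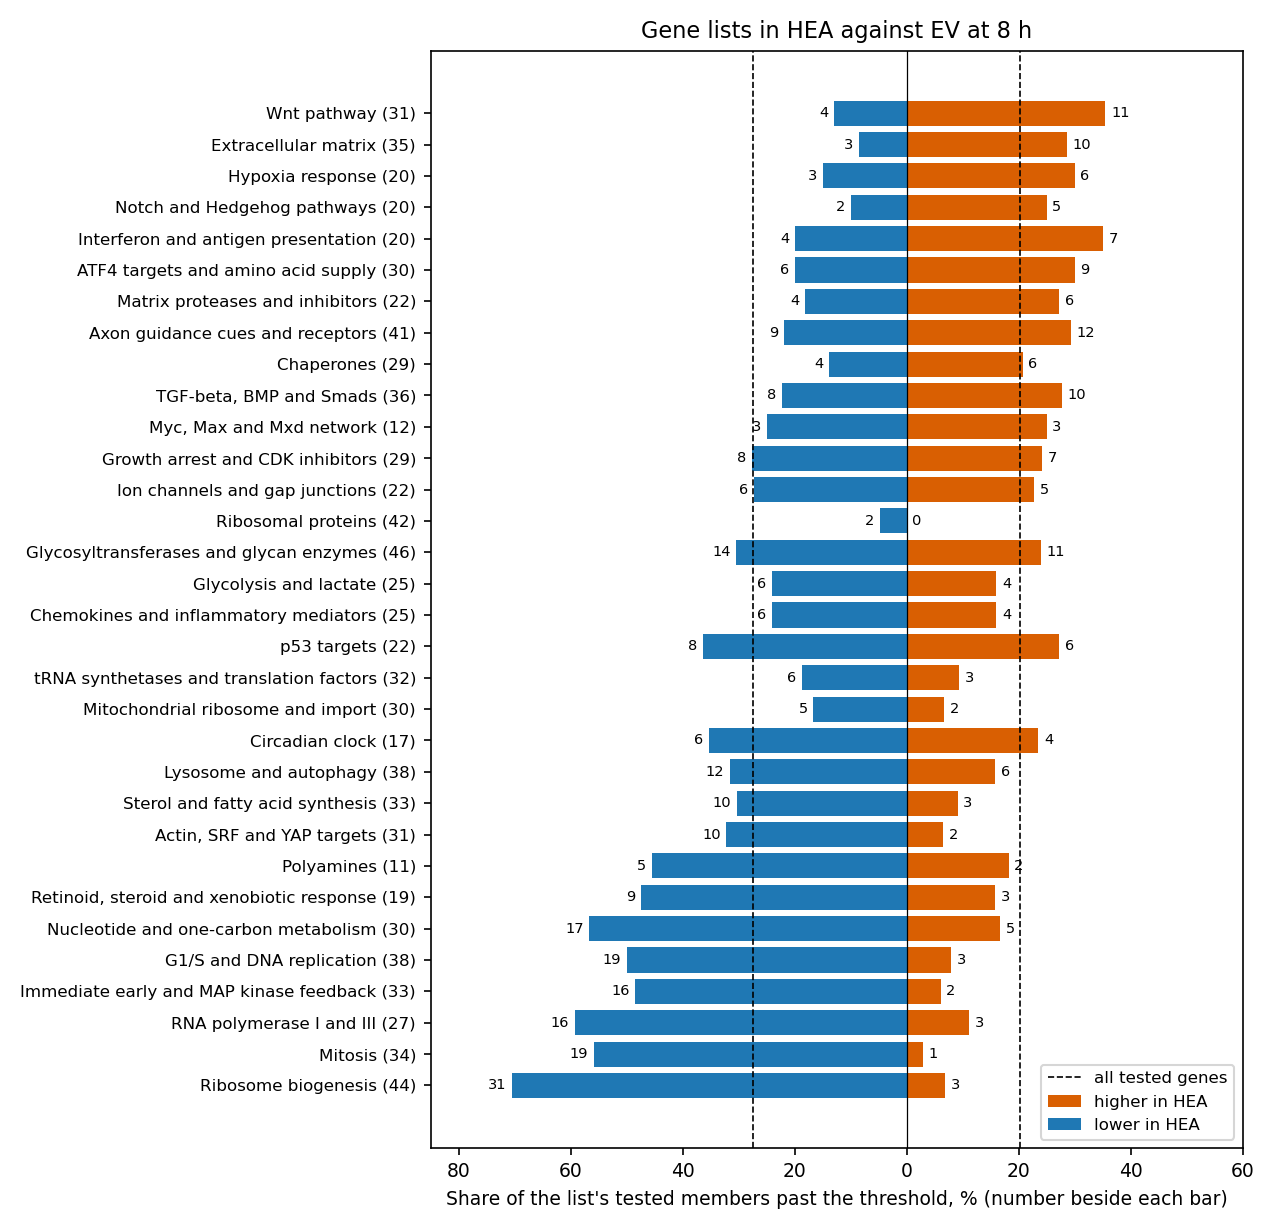
Share of each list's tested members (number in brackets) that were higher (orange, to the right) or lower (blue, to the left) in HEA than in EV cells at 8 h, with the number of members beside each bar. The dashed lines give the shares over all tested genes, 20.2% higher and 27.5% lower. Ribosome biogenesis, with 31 of 44 members lower, extends furthest to the left, and the Wnt list, with 11 of 31 higher, is at the top.

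Of 38 G1/S and replication genes, 19 were lower and 3 higher (median log2 -0.20), beside 27.5% lower and 20.2% higher among all tested genes. Only 11 were lower after median centring and 12 without HEA library 1. Fewer of all tested genes passed in these settings too: 5695 (53.6% of them higher) and 4715 (44% of them higher), beside 5853. Ccne1, the cyclin E that drives entry into S phase, read 10.9, 16.6 and 15.1 RPKM in HEA cells, against 31, 29.4 and 29 RPKM in EV cells (log2 -1.06 ± 0.13), and its kinase Cdk2 read 28, 30.3 and 32.8 RPKM in HEA cells, against 49, 46.2 and 48.4 RPKM in EV cells (-0.65 ± 0.067). Both genes were below EV in all HEA libraries, where 64.2% of all tested genes had no overlap in either direction. The replication factor Mcm10 fell by 0.66 on the log2 scale, and Orc1, of the origin recognition complex, rose by 0.57. Of 34 mitosis genes, 19 were lower and 1 higher (median -0.25), with modest changes such as Prc1 (-0.48), Aurka (-0.43) and Birc5 (-0.33). For that list the number higher ranged up to 4 and the number lower down to 13 under other scalings.

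Cdkn1a, which encodes the CDK inhibitor p21 and is a classical target repressed by Myc, was higher in HEA cells. It read 17.5, 19.4 and 16.9 RPKM in HEA cells, against 3.26, 3.47 and 3.73 RPKM in EV cells (log2 2.21 ± 0.26, limma adjusted p = 9.21e-07). No library of either group reached the other, as for 64.2% of all tested genes. In WT cells it averaged 1.05 ± 0.43 RPKM, below EV, and HEA exceeded WT by 3.61 ± 0.26. The other inhibitors did not follow: Cdkn2c was lower (-0.33), and Cdkn1b (-0.29), Cdkn2a (-0.12), Cdkn2b (0.01) and Cdkn2d (0.10) did not pass. Over the whole list of 29 growth arrest genes, 7 were higher and 8 lower against EV (median 0.01), with Ndrg1 (0.81) among the rises and Ndrg4 (-0.71) among the falls. Against WT, 15 were higher and 2 lower, beside 23.4% higher and 24.6% lower among all tested genes. In WT against EV, 14 were lower and 2 higher in that list, beside 20.1% lower and 15.2% higher among all tested genes. The p53 targets were split against EV, with 6 of 22 higher and 8 lower, and only 3 higher without HEA library 2 or EV library 3. Perp (0.44) and Dcxr (0.60) rose, and Tnfrsf10b (-0.47) and Aen (-0.46) fell. Against EV, 20.2% of all tested genes were higher and 27.5% lower.

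Of 33 immediate early and MAP kinase feedback genes, 16 were lower, 2 higher and 15 did not pass (median log2 -0.29). With every library in the fit, 27.5% of all tested genes were lower and 20.2% higher. Without HEA library 1 only 9 of the list were lower, but fewer of all tested genes passed there as well. That number was 4715 (44% of them higher), beside 5853 with every library. Etv5, an ETS factor downstream of FGF signals, read 5.5, 7.4 and 6.8 RPKM in HEA cells, against 17, 16.6 and 16.9 RPKM in EV cells (log2 -1.30 ± 0.098). Dusp6, the phosphatase that switches off ERK, read 11.5, 18.6 and 15.6 RPKM in HEA cells, against 37.1, 34.6 and 36.6 RPKM in EV cells (-1.24 ± 0.13). HEA library 1 was the lowest in both genes, and all HEA libraries lay below EV, beside 64.2% of all tested genes without overlap. Egr1 (-0.81) and Egr2 fell as well, as did Fosl1, with 4.15 ± 1.6 RPKM in HEA cells and 8.44 ± 0.53 RPKM in EV cells, while Fos did not pass (-0.73, limma adjusted p = 0.0805). Spry1, a feedback inhibitor of receptor tyrosine kinases, went the other way, with 17.7 ± 0.28 RPKM in HEA cells and 9.05 ± 0.23 RPKM in EV cells (0.93 ± 0.1), and so did Dusp7 (0.35).

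In developmental signalling, 11 of 31 listed Wnt pathway genes were higher and 4 lower (median log2 0.26), beside 20.2% higher and 27.5% lower among all tested genes. Fzd9 is not on that list. The receptors Fzd8 (0.68) and Fzd7 (0.58), the co-receptor Lrp6 (0.29) and the secreted antagonists Sfrp4 (1.54) and Dkk3 (0.40) were higher, and the ligand Wnt9a averaged 4.58 ± 0.84 RPKM in HEA cells and 2.42 ± 0.63 RPKM in EV cells (0.81 ± 0.16). Apc, a scaffold of the beta-catenin destruction complex (-0.59), the ubiquitin ligase Rnf43 (-1.22), the receptor Fzd5 (-0.58) and the ligand Wnt5b (-0.52) were lower. Axin2, a common readout of Wnt activity, was under the filter, at 0.314 ± 0.028 RPKM in HEA cells and 0.247 ± 0.023 RPKM in EV cells. In the Notch and Hedgehog list (20 tested, 5 higher, 2 lower) the receptor Notch3 rose to 1.66 ± 0.41 RPKM in HEA cells, against 0.0682 ± 0.011 RPKM in EV cells (1.90 ± 0.22), the Hedgehog co-receptor Boc rose (0.67) and the Hedgehog target Gli1 was lower (-0.59). So the receptor gene Notch3 and the Notch target Hes1 changed in opposite directions, while 13 of the 20 listed genes did not pass. In WT against EV, Hes1 was lower too (-1.06) and Notch3 did not pass (-0.03).

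TGF-beta and BMP genes comprised 10 rises and 8 falls among 36, with 5 falls left under quantile normalisation, median centring or cyclic loess, and without HEA library 2, EV library 1 or EV library 3. The BMP antagonist Nog read 6.24, 5.91 and 4.37 RPKM in HEA cells, against 1.69, 1.59 and 1.31 RPKM in EV cells (log2 1.56 ± 0.16), and Inhbb rose as given above. The activin receptor Acvr1b (-0.98) and the Smad corepressor Tgif1 (-0.44) fell. Axon guidance genes included 12 rises and 9 falls of 41. Over all tested genes, 20.2% were higher and 27.5% lower. Sema3c, a secreted semaphorin, averaged 43.8 ± 2 RPKM in HEA cells and 18.2 ± 2.1 RPKM in EV cells (1.24 ± 0.13), and its receptor family member Plxnd1 31.6 ± 3.1 RPKM in HEA cells and 10.5 ± 0.57 RPKM in EV cells (1.54 ± 0.19). Efnb1 (-1.38), an ephrin, was lower, and the plexin gene Plxna3 averaged 5.94 ± 1 RPKM in HEA cells and 12.3 ± 1.3 RPKM in EV cells.

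Of 35 extracellular matrix genes 10 were higher and 3 lower (median log2 0.03), beside 20.2% higher and 27.5% lower among all tested genes, with 5 higher without HEA library 1 and 6 without EV library 3. Fbln1, a fibulin of elastic fibres and basement membranes, read 8.54, 8 and 7.85 RPKM in HEA cells, against 2.76, 3.36 and 2.79 RPKM in EV cells (1.32 ± 0.16), and Dcn, the proteoglycan decorin, was scarce, at 1.04 ± 0.29 RPKM in HEA cells and 0.177 ± 0.085 RPKM in EV cells (1.17 ± 0.22). The fibrillar collagen genes Col1a2 (0.25), Col5a1 (0.35) and Col5a2 (0.22) were slightly higher, and Col1a1 (0.18) and Col3a1 (0.23) did not pass. The laminin Lamb1 (-0.59) and the cross-linking enzyme Loxl3 (-0.54) were lower. Against WT, 18 matrix genes were higher in HEA cells and 1 lower, beside 23.4% higher and 24.6% lower among all tested genes. WT cells themselves had 10 matrix genes lower and 2 higher than EV cells, beside 20.1% lower and 15.2% higher among all tested genes. Of 22 matrix proteases and inhibitors 6 were higher, among them Adamts10 (0.81) and Adamts1 (0.58), and 4 lower, among them Mmp11 (-0.94) and the urokinase receptor Plaur (-0.84). Actin, SRF and YAP targets had 10 falls and 2 rises among 31, with 6 falls after median centring: the smooth muscle actin Actg2 (-1.55), Tgfb1i1 (-1.35) and Srf itself (-0.71) fell.

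Among stress and metabolic lists, the antioxidant genes split. The shares lower among lysosome genes and sterol genes, and among the actin list above, were near the 27.5% of all tested genes. Hmox1, haem oxygenase, read 15.5, 24.4 and 21.7 RPKM in HEA cells, against 58.9, 54 and 58.5 RPKM in EV cells (log2 -1.48 ± 0.15, limma adjusted p = 1.75e-07), and the quinone reductase Nqo1 also fell (-1.60 ± 0.3). Gclc, the rate-limiting enzyme of glutathione synthesis, rose in the same list, with 61.6 ± 3.6 RPKM in HEA cells and 34.1 ± 1.3 RPKM in EV cells (0.84 ± 0.055). That list of 19 retinoid, steroid and xenobiotic genes had 9 falls and 3 rises, 1 of which is Esr1, whose reads may come from the introduced fusion. Of 38 lysosome and autophagy genes 12 were lower and 6 higher, with Tfeb, the factor that drives lysosome genes, at 1.58 ± 0.27 RPKM in HEA cells and 5.06 ± 0.63 RPKM in EV cells (-1.42 ± 0.14), its regulator Flcn lower (-0.63), and Scarb2 (0.43) and Atp6v0d1 (0.45) higher.

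Amino acid supply was mixed, with 9 of 30 higher and 6 lower: the neutral amino acid carrier Slc1a5 was lower (log2 -0.81 ± 0.083) and its relative Slc1a4 higher (0.52 ± 0.072), while Pycr1 of proline synthesis was lower (-0.91). Of 20 hypoxia response genes 6 rose, including Car12 (1.54), Mxi1 (0.91) and P4ha1 (0.43), and 3 fell, including Vegfa (-0.52), with 1 fall after median centring or without EV library 2. Sterol and fatty acid synthesis had 10 falls and 3 rises of 33, with 5 falls after median centring and 6 without HEA library 1, EV library 1 or EV library 3. Among them, Nsdhl (-0.80) and Ebp (-0.46) were lower and Dhcr7 (0.52) higher. Of 29 chaperone genes 6 were higher (3 without HEA library 3 or EV library 2) and 4 lower, and the near-identical copies Hspa1a (-0.91) and Hspa1b (-0.85) fell but cannot be separated with certainty. Clock genes rose and fell (4 and 6 of 17), Per2 (0.82) and Nfil3 (0.46) being higher and Nr1d2 (-0.76) lower. The counts of these lists stand beside 20.2% higher and 27.5% lower among all tested genes.

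Surface and immune genes also divided, beside 20.2% higher and 27.5% lower among all tested genes. The chemokine, ion channel and glycan lists lay near these shares. Of 20 interferon and antigen presentation genes 7 were higher, including the peptide transporter Tap2 (log2 1.58 ± 0.19) and the class I genes H2-K1 (0.61) and H2-D1 (0.53), whose family members may share reads, and 4 were lower (2 without HEA library 1), including Irf9 (-0.34). Of 25 chemokine and inflammatory genes 4 rose and 6 fell. The chemokine Ccl7 averaged 29.1 ± 2.4 RPKM in HEA cells and 12.6 ± 0.83 RPKM in EV cells (1.17 ± 0.17), the NF-kappaB inhibitor Nfkbie rose by 1.05 ± 0.12, and Tnfaip2 was lower (-1.27 ± 0.15). Among ion channels and gap junctions, 5 of 22 rose and 6 fell: the potassium channel Kcnk10 read 21.6, 22.4 and 20.5 RPKM in HEA cells, against 5.63, 5.6 and 5.62 RPKM in EV cells (1.85 ± 0.079), and the bicarbonate carrier Slc4a4 rose by 1.14. Glycan enzymes had 11 rises and 14 falls of 46, with B4galnt1, which makes complex gangliosides, higher (1.55 ± 0.14) and the sialyltransferase St6gal1 lower (-1.21 ± 0.099).

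Within the Myc network itself, 3 of 12 tested genes were higher and 3 lower, beside 20.2% and 27.5% of all tested genes. Mycl, a paralog of Myc, read 7.46, 7.4 and 5.33 RPKM in HEA cells, against 1.28, 1.19 and 1.25 RPKM in EV cells (log2 2.04 ± 0.16, limma adjusted p = 4.66e-09), and WT cells were at 0.635 ± 0.063 RPKM. The repressor genes Mxi1 (0.91 ± 0.12) and Mxd4 (0.60 ± 0.15) rose, and Mxd3 (-0.74 ± 0.16) and Mlx (-0.67 ± 0.14), which forms dimers with some of these proteins, fell. Max, the shared partner, did not pass (-0.08 ± 0.089), with 38.3 ± 1 RPKM in HEA cells and 40.5 ± 3.4 RPKM in EV cells.

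Fibroblast markers were mostly in place, with a summed level of 677 to 718 RPKM over 13 genes in HEA libraries and 626 to 647 RPKM in EV libraries. Vim was the most abundant (151 RPKM in HEA cells and 133 RPKM in EV cells), and 2 of the 13 were under 1 RPKM in all 6 libraries. All 12 epithelial markers were under 1 RPKM in all 6 libraries, with Epcam and Krt18 at 0. The macrophage genes Emr1 and Tyrobp, the muscle factors Myod1, Myog, Myf5 and Myf6, the adipocyte genes Plin1, Cidec and Lep, and the neuronal gene Snap25 were also at 0. The macrophage list summed to 22.8 to 24.4 RPKM in HEA libraries and 24.1 to 27 RPKM in EV libraries, and the muscle list to 3.24 to 4.27 RPKM in HEA libraries and 5.32 to 5.63 RPKM in EV libraries. Cd68, the most abundant of the macrophage list, averaged 9.26 RPKM in HEA cells and 12.5 RPKM in EV cells. The adipocyte list summed to 2.75 to 6.18 RPKM in HEA libraries and 2.98 to 4.48 RPKM in EV libraries, and the neuron and glia list to 16 to 18.9 RPKM in HEA libraries and 22.2 to 25.3 RPKM in EV libraries. The endothelial list summed to 17.6 to 21.1 RPKM in HEA libraries and 4.04 to 5.65 RPKM in EV libraries, and its most abundant gene was Flt1, a VEGF receptor (17.8 ± 1.5 RPKM in HEA cells and 3.23 ± 0.78 RPKM in EV cells, log2 2.31 ± 0.15), while the defining genes Vwf and Tie1 were at 0. Nuclear and RNA quality transcripts summed to 687 to 723 RPKM in HEA libraries and 644 to 668 RPKM in EV libraries, with 4 of 8 higher, such as Kcnq1ot1 (1.22 ± 0.26), and Gas5 (-0.43) and Snhg1 (-0.29) lower. Beside these, 20.2% of all tested genes were higher and 27.5% lower. Without HEA library 1 or EV library 1 only 1 of the 8 transcripts was higher. Their part in the other results was not tested.

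The direct test against WT at 8 h also picked out genes where the mutant and the unmutated form differed most. Pgbd5 (log2 difference 4.85), Cdkn1a (3.61), Hpse (3.61), Engase (3.40) and Trim7 (3.22) were highest in HEA cells relative to WT cells. Hpse and Engase did not pass for WT against EV (0.09 and -0.09), Pgbd5 was slightly higher there (0.73, with 0.419 ± 0.16 RPKM in WT cells), and Trim7 lower (-0.43). At the other end stood Smpdl3b (-3.28), P2ry2 (-3.05), Dusp9 (-2.90), Pomgnt2 (-2.80) and St6galnac4 (-2.73). P2ry2, a receptor for extracellular nucleotides, read 0.943, 0.988 and 0.774 RPKM in HEA cells and 11.1 ± 0.72 RPKM in WT cells, and HEA did not pass against EV (0.04 ± 0.14, adjusted p = 0.849). The other 4 were below EV in HEA cells and above EV in WT cells. Smpdl3b, a lipid phosphodiesterase, averaged 4.72 ± 0.78 RPKM in HEA cells, 50.1 ± 3.9 RPKM in WT cells and 12.3 ± 0.75 RPKM in EV cells. Not all changes differed between the forms: Spry1 and Noc4l were raised in both (0.93 and 0.37 for HEA, 0.97 and 0.37 for WT against the same EV libraries), with HEA minus WT at -0.04 ± 0.1 and 0.00 ± 0.059. Of the 15 largest falls, Fgf2 (-1.28), Fam110c (-1.34), Egr2 (-1.22), Hes1 (-1.06), Agtrap (-0.91), Lrrc8e (-0.73) and Klf8 (-0.73) were also lower in WT than EV cells. Tnfrsf21 (0.72) and Fam195a (0.79) were higher in WT cells, and the rest did not pass. Of the 15 largest rises, Fzd9 (2.18), Gls2 (1.83), Pm20d2 (0.60) and Chst15 (0.56) were also higher in WT than EV cells. The shared changes of these genes were larger in HEA than in WT cells by the direct test. In RA cells at 8 h, 183 of 12268 genes were higher and 158 lower than in the same EV libraries, and 11927 did not pass. Some changes named above passed there too: Per2 (log2 0.73 in RA cells), Ccl7 (0.98), Ccbe1 (-1.34), Tnfrsf21 (-0.92) and Fam110c (-0.93). Pgbd5 (0.18), Hpse (0.19) and Cdkn1a (-0.35) did not.

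The 4 h libraries, which enter the 8 h fold changes nowhere but share the gene filter and the estimate of spread with them, gave 5303 genes that passed in HEA against EV (43.2%), 2176 higher (17.7%) and 3127 lower (25.5%). Of the 2474 genes higher at 8 h, 1899 were also higher at 4 h, which is 76.8% of the 8 h and 87.3% of the 4 h list. Of the 3379 lower at 8 h, 2668 were also lower at 4 h, 79.0% of the 8 h and 85.3% of the 4 h list, and 3 genes passed in opposite directions. Pgbd5 was raised by 5.18 at 4 h and 5.57 at 8 h, Fzd9 by 3.77 and 3.69, and Cdkn1a by 1.96 and 2.21. Ribosome biogenesis genes were already 33 lower and 2 higher at 4 h. Falls were in several cases shallower at 4 h, as in Fgf2 (-1.65 at 4 h and -2.50 at 8 h), Ccbe1 (-1.29 and -2.34) and Fam195a (-1.10 and -1.82), but none of these differences between times passed. The test of the difference between the 8 h and 4 h effects called 2 of 12268 genes (0.0163%), L3mbtl3 and Steap1, with 408 genes (3.33%) at an unadjusted p under 0.05 in limma.

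**Figure D5:**
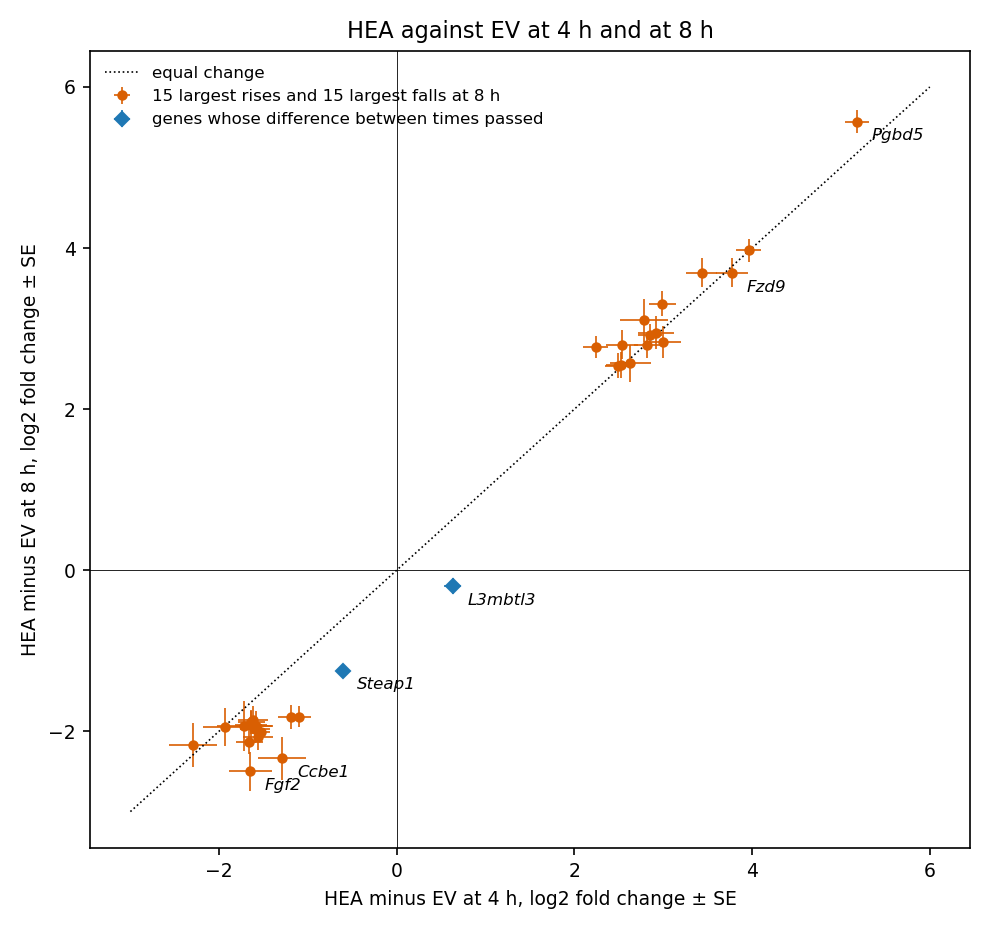
Log2 fold changes of HEA over EV ± SE at 4 h (horizontal axis) and 8 h (vertical axis) for the 15 largest rises and 15 largest falls at 8 h in orange, and for the 2 genes whose effect differed between the times in blue. The dotted line marks equal change. The orange rises were chosen at 8 h, lie close to the line and reach 5.18 and 5.57 for Pgbd5, and Fgf2 and Ccbe1 lie below it.

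The authors' deposited table of their own comparison of HEA with EV at 8 h calls 6709 genes, 3300 higher and 3409 lower. Of the genes called here, 95.9% of the higher and 89.2% of the lower are called in the same direction in the authors' deposited table, and 0 in the opposite one. For Myc the authors' deposited table gives a log2 change of -0.19 with an adjusted p of 0.0398, where limma gave 0.253.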

How the data were processed

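Strand-specific total RNA libraries were made, per the labels' protocols. The submitters' processing notes name TopHat2 2.0.8, SAMtools, featureCounts 1.4.5-p1, DESeq2 and the build mm9, without roles. No source used here gives the strand setting, so overlapping, antisense and near-identical genes may share reads. The authors deposited RPKM per gene and library, per the file headers, and a table with log2 fold changes, p-values, a test statistic (a score) and a mean normalised count, named baseMean.

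RPKM values are not counts. They were taken as log2(RPKM + 0.5), filtered at RPKM of at least 1 in at least 3 of 24 libraries, and fitted with limma 3.58.1 (trend, R 4.3.3) over 8 group means with 16 residual degrees of freedom. The Benjamini-Hochberg adjustment ran within each comparison, with a threshold of 0.05. Whole reads were recovered from RPKM and baseMean for depth (9.82 to 12.8 M per library) and for voom. Intervals cover counting error only. Tables and figures used Python 3.11.15, pandas 2.3.3, numpy 2.4.6, scipy 1.17.1 and matplotlib 3.10.9, and the procedure was tested on simulated data.

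Members and lists were chosen with earlier results of these data known. Named genes are Esr1 and Myc, the 15 largest rises and falls with a mean of at least 1 RPKM and no overlap (predicted, pseudo-, microRNA, small nucleolar RNA and histone genes left out), the 3 members with the smallest p and up to 2 opposing members of each list, and the 5 largest differences from WT each way, and genes that pass between the times. Other members of the lists were named after their values were seen. Alternatives were quantile, median and cyclic loess scaling (the last added after seeing the data), pseudocounts of 0.1 and 1, other filters, no trend, robust variance, fewer groups in the fit, voom, a replicate block and leaving out each library. Some members of the lists are not reported here by name.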

Additional observations from a re-analysis of the deposited data

Results flagged for a closer look

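Both results stand out because the HEA effect differed between the 2 times by the interaction test. L3mbtl3, a chromatin-binding MBT domain gene, read 5.89, 5.96 and 4.91 RPKM in HEA cells and 5.78, 6.93 and 6.72 RPKM in EV cells at 8 h, and 8.46 ± 0.3 RPKM in HEA cells and 5.27 ± 0.32 RPKM in EV cells at 4 h. Its log2 change was 0.63 at 4 h (limma adjusted p = 2.73e-05) and -0.20 at 8 h (0.102), so that 8 h minus 4 h was -0.83 ± 0.14 (0.0372). Steap1, a metalloreductase family gene of the cell surface, read 18.7, 18.7 and 17.7 RPKM in HEA cells and 43.9, 45.4 and 43.5 RPKM in EV cells at 8 h, and 30 ± 3.3 RPKM in HEA cells and 45.8 ± 2.5 RPKM in EV cells at 4 h. It was lower at both times, by log2 -0.61 at 4 h and -1.25 at 8 h, with a difference of -0.64 ± 0.11 (0.0372). Neither call held under median centring or the replicate block, where 0 genes passed, 1 gene passed with quantile normalisation or voom, and 0 to 2 genes with single libraries left out.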

How the results depend on the processing

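The number of genes that passed in HEA against EV at 8 h was 5853. It stayed within 1.5 times of that under all alternatives run, from 5665 with a filter on the mean of all libraries to 6946 with only the HEA and EV libraries in the fit, and leaving out single libraries gave 4715 to 5356, the lowest without HEA library 1. HEA against WT at 8 h and HEA against EV at 4 h also kept their counts within 1.5 times. The difference between the times is the exception: 2 genes passed, against 1 with quantile normalisation, 0 with median centring, 6 with no filter, 1 with voom, 0 with the replicate block, and 0 to 2 without single libraries. The cause was not tested. P2ry2, which did not pass (log2 0.04), changed sign at -0.13 with quantile normalisation, -0.04 with cyclic loess, and lay between -0.05 and 0.17 without single libraries. Deviations from the group means correlated at -0.22, -0.13 and 0.15 between HEA and EV libraries of the same number, and HEA library 1 correlated best with EV library 2 (0.35). Deviations within so small a group are tied to each other. These values therefore cannot show whether a number marks a shared culture or day. With replicate number as a block 5751 genes passed. Genes of low RPKM rest on few reads, and changes under the spread between libraries were not detectable at this depth.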

Other observations

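Predicted loci (names ending in Rik), which the rule for named genes passes over, were chosen after their values were seen. Of those past the threshold with a log2 change of at least 2 either way, 6430548M08Rik averaged 29.2 RPKM in HEA cells and 1.84 RPKM in EV cells at 8 h (log2 3.67, limma adjusted p = 6.61e-14). E330009J07Rik averaged 36.3 RPKM in HEA cells and 3.63 RPKM in EV cells (log2 3.16). The rises of 9530077C05Rik (2.22), B930041F14Rik (2.12) and 4930592I03Rik (2.00) were smaller. The fall was in 2610318N02Rik, with 2.81 RPKM in HEA cells and 14.6 RPKM in EV cells (log2 -2.19, adjusted p = 2.21e-10).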
